A study of Mus musculus with 6 samples.

Results

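A set of 8 genes that NF-kB is known to switch on or that sit in its signalling circuit, out of 36528 gene entries in the tables, was picked by gene symbol and followed through every library: Tnfaip3, Tnip1, Tnip3, Birc3, Traf1, Traf3, Icam1 and Sod2. The 8 genes, and the pathway lists used below, were chosen with earlier results of these data known. Shares over all genes are therefore given beside their counts as description, not as a test. All 8 passed the filter on low counts that left 15585 genes for testing. The libraries were made from polyadenylated RNA of mouse brain microglia, the macrophages that live in brain tissue, in vitro. There were 2 libraries in each of 3 groups: untreated wild type, untreated Cop1 KO microglia whose label also names loxP, and wild type treated with LPS, the outer-membrane lipid of gram-negative bacteria that Toll-like receptor 4 (TLR4) detects. COP1 is a ubiquitin ligase. The labels give no strain, age, Cre driver, LPS dose or LPS duration, and no batch or replicate number, and nothing says that the 2 libraries of a group came from separate cultures or animals. P-values therefore reflect only how much these libraries varied, which may be technical.

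NF-kB is a family of transcription factors held inactive in the cytoplasm by IkB proteins until a receptor such as TLR4 activates the IKK kinases. Ubiquitin chains built by TRAF and cIAP ligases carry the signal to IKK. A20, the product of Tnfaip3, edits and removes such chains together with its binding partners ABIN-1 (Tnip1) and ABIN-3 (Tnip3), and because NF-kB induces these genes the circuit restrains itself. The other genes followed are cIAP2 (Birc3), TRAF1 and TRAF3 in the signalling machinery, the leukocyte adhesion molecule ICAM-1 (Icam1) and the mitochondrial superoxide dismutase (Sod2), a classic NF-kB induced enzyme.

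Because the genes are grouped as NF-kB targets, the bases before their RefSeq start sites (build GRCm38.p6) were searched for the kappaB consensus, the 10-base site that NF-kB dimers bind, on both strands. Windows were found for all 8 genes, and 5 of the 8 held a match in the 250 bases before the start, against 5% of 32851 windows of the same length. The matches are shown in capitals, each read 5′ to 3′ on the strand of its gene:
Tnfaip3, chr10:19015411-19015440, minus strand, with the consensus 12 to 3 bases before the start: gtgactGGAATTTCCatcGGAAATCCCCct
Tnip1, chr11:54962978-54963007, minus strand: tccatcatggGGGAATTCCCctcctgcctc
Tnip3, chr6:65590334-65590363, plus strand: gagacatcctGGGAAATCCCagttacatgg
Sod2, chr17:13007746-13007775, plus strand: cggggcggacGGGGTTCCCCgaggcggggc
Traf3, chr12:111166350-111166369, plus strand: ggcggcccgcGGGGATTTCC
In the Tnfaip3 line the second run of capitals is the consensus. The first run is a match to GGANNTTCC, a 9-letter motif that was added after the windows had been read. That motif, searched on both strands, occurred in 2 of the 8 genes, Tnfaip3 and Icam1, against 3.59% of all windows. Because it was added with these windows in view, the comparison is no test of enrichment. The comparison for the 10-base consensus is no such test either, since the genes were grouped as NF-kB targets. The Tnip1 match reads the same on both strands and therefore counts once. Tnfaip3 has another RefSeq window, which held no match, so by window 5 of 9 held the consensus. Bases just after each start were looked for in GENCODE transcripts of the same gene, and only those of Tnip1 and Icam1 were not found.

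Birc3, Traf1 and Icam1 had no match to the 10-base consensus in this window. Traf1 and Icam1 are shown because they had the largest responses to LPS, described below, with neither a 10-base match, and because the Icam1 window holds the 9-letter motif in capitals:
Icam1, chr9:21015690-21015939, plus strand, the 250 bases before the start: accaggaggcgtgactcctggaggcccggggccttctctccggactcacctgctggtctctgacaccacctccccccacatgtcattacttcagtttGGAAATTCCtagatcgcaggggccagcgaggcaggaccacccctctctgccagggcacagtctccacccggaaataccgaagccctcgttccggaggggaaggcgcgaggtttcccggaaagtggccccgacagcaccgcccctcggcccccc
Traf1, chr2:34961813-34962022, minus strand, the 210 bases outside the annotated gene: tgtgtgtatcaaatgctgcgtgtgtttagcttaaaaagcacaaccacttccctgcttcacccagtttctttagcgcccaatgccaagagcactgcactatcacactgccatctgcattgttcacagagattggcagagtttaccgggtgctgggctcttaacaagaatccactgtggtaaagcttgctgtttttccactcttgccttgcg
A match is a description of letters and not a shown binding site, and a window without one says nothing about sites farther away. None of the stretches of up to 30 bases round the matches overlapped an exon in GENCODE. The Tnfaip3, Tnip3 and Sod2 stretches did lie within the GENCODE bounds of their own genes, and the Traf3 stretch within 4930595D18Rik on the opposite strand. In the RefSeq coordinates given below, Traf3 begins at 111166321, so the last 49 bases of its window, with the match, are inside the gene.

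**Figure D1:**
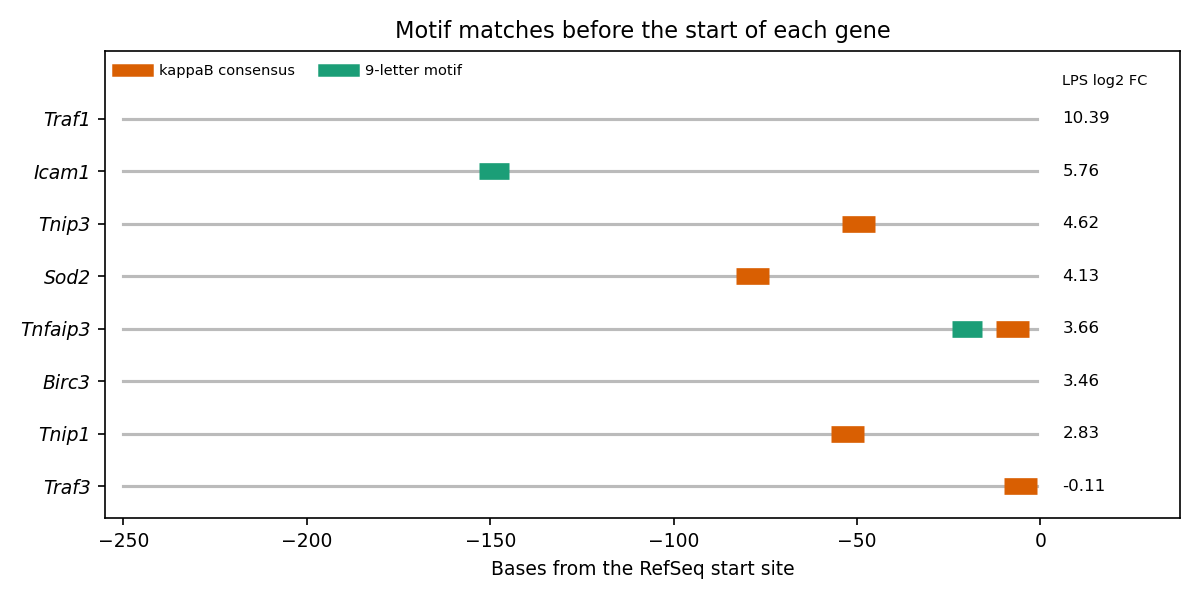
Position of each motif match in bases from the RefSeq start site (x axis) for the 8 genes, ordered from bottom to top by their log2 fold change with LPS, printed at the right. Orange marks the kappaB consensus and green the 9-letter motif. Traf3, at −0.11, has a consensus match next to the start site of its window, which lies inside the annotated gene. Traf1 has no match at 10.39.

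Library totals lay between 20568144 and 22553708 gene counts. Cop1 itself, the knocked-out gene, was at 12.7 and 11.5 CPM (counts scaled to a common library size with TMM factors) in untreated wild type, 8.05 and 9.22 in Cop1 KO and 23.4 and 27.2 with LPS, a log2 fold change of −0.49 (SE 0.11) in the knockout. The labels do not say which exons were deleted, so counts over the whole gene check the label only in part. All 12 microglia markers were detected in every group, although Tmem119 and P2ry12 were only at 7.06 and 7.26 CPM in untreated replicate 1. The 12 summed to 8000 and 8030 CPM in untreated wild type, 11900 in each Cop1 KO library and 5390 and 5460 with LPS. Astrocyte markers (11) summed to 1090 in each untreated library, 79.5 and 77.6 in Cop1 KO and 1190 and 1210 with LPS, with 10 of 11 lower in the knockout. Neuron markers went from 76.6 and 76.9 CPM in untreated wild type to 4.05 and 4.81 in Cop1 KO, oligodendrocyte lineage markers from 293 and 287 to 201 and 199, and fibroblast markers from 1040 and 1060 to 815 and 814. Most of the fibroblast sum was Fn1, at a mean of 971 CPM in untreated wild type and 691 in Cop1 KO. Of the 7 fibroblast markers tested, 4 rose and 3 fell in the knockout, with a median log2 fold change of 0.98. Among the 8 oligodendrocyte lineage markers tested, 6 fell and 2 rose, with a median of −2.27. The 2 that rose, Mbp and Cnp, made up most of that sum in Cop1 KO, at means of 90.8 and 71.4 CPM. In bulk RNA, fewer cells of a type and less RNA per cell cannot be told apart. Of all genes tested, 58.4% were called in the knockout comparison, 73.7% in the LPS comparison and 79.6% between Cop1 KO and LPS (edgeR quasi-likelihood test, adjusted p below 0.05). Scaling sets the zero point: over all genes the median log2 fold change was −0.01 in the knockout and −0.18 with LPS, and with library size only it was −0.20 and −0.74. The share of calls that were higher, 48.1% in the knockout and 41.1% with LPS, was 24.4% and 19.9% with library size only, 58.4% and 49.6% with median-of-ratios factors, and 63.6% and 50.9% on the authors' normalised scale. Between Cop1 KO and LPS it was 50.2%, or 64.5% with library size only.

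With LPS, 7 of the 8 genes rose, each by more than 2-fold, 0 fell and 1, Traf3, did not pass. Of all genes tested, 30.2% were called higher, 43.4% lower, and 14.9% higher by at least 2-fold. The median log2 fold change of the 8 was 3.89, beside −0.18 for all genes. The responses ran from 2.83 for Tnip1 to 10.39 for Traf1, and in the 7 genes both LPS libraries lay above both untreated libraries, as they did in 34.6% of all genes tested (both below in 51.2%).

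Tnfaip3 (Entrez Gene 21929, chromosome 10, 19000910 to 19015410) was at 77.8 and 80.2 CPM in untreated wild type and at 993 and 1008 CPM with LPS. The A20 gene thus rose 12.7-fold (log2 3.66, SE 0.04, edgeR adjusted p = 9.2e-58, n = 2 libraries per group). Tnip1 (chromosome 11, 54910787 to 54962956), which encodes the ABIN-1 partner of A20, went from 48.1 and 47.7 CPM to 354 and 326 CPM. This 7.10-fold rise (2.83, SE 0.04) was the smallest among the 7 genes that rose. Tnip3 (chromosome 6, 65590398 to 65634040), the gene of the less abundant partner ABIN-3, had 8.21 and 7.68 CPM without LPS. With LPS it had 192 and 198 CPM, a 24.6-fold rise (4.62, SE 0.08, adjusted p = 1.9e-50). The 3 genes of the A20 complex therefore rose by different amounts, and their replicates differed far less than the groups.

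Traf1 showed the widest range of the 8 genes. This gene (Entrez Gene 22029, chromosome 2, 34941750 to 34961812) encodes a TRAF adaptor without the RING domain that other TRAF ligases use to build ubiquitin chains, and it binds TRAF2 and the cIAPs. It had 12 and 19 counts in the untreated libraries, or 0.476 and 0.708 CPM, and 14640 and 13126 counts with LPS, or 818 and 792 CPM. The rise was 1339-fold (log2 10.39, SE 0.24, adjusted p = 2.4e-63), and 0.135% of the genes tested had a larger log2 fold change. The small untreated counts set the precision of this ratio, and its log2 value was 10.14 without untreated replicate 1 and 10.70 without untreated replicate 2.

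Birc3 (chromosome 9, 7847468 to 7873205) encodes cIAP2, a ubiquitin ligase recruited by TRAF2 that modifies RIPK1. It went from 24.2 and 21.5 CPM to 246 and 255 CPM, a 10.99-fold rise (3.46, SE 0.06). Traf3 (Entrez Gene 22031, chromosome 12, 111166321 to 111267155), whose product restrains the non-canonical NF-kB kinase NIK and takes part in interferon induction, behaved differently. Its values were 47.5 and 45.5 CPM untreated and 42.4 and 43.8 CPM with LPS. The groups did not overlap, but the log2 fold change of −0.11 (SE 0.06) did not pass the test (adjusted p = 0.10). Scaling changed its sign: median-of-ratios factors gave 0.03 (edgeR adjusted p = 0.67), and library size only gave −0.67 (edgeR adjusted p = 2.1e-14).

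Icam1 (Entrez Gene 15894, chromosome 9, 21015940 to 21028814), the ligand of the integrins LFA-1 and Mac-1, had the highest level per length of the 8 genes in every group, as given below. It went from 65.6 and 65.3 CPM to 3591 and 3503 CPM, a 54.2-fold rise (5.76, SE 0.03, adjusted p = 3.0e-67). An antisense gene, Gm47079, overlaps 11.7% of its exonic bases, and the library kit as labelled does not separate the strands. Sod2 (chromosome 17, 13007839 to 13018119), the mitochondrial enzyme that turns superoxide into hydrogen peroxide, went from 62.9 and 65.1 CPM to 1120 and 1117 CPM. It rose 17.5-fold (4.13, SE 0.04, adjusted p = 9.3e-60).

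**Figure D2:**
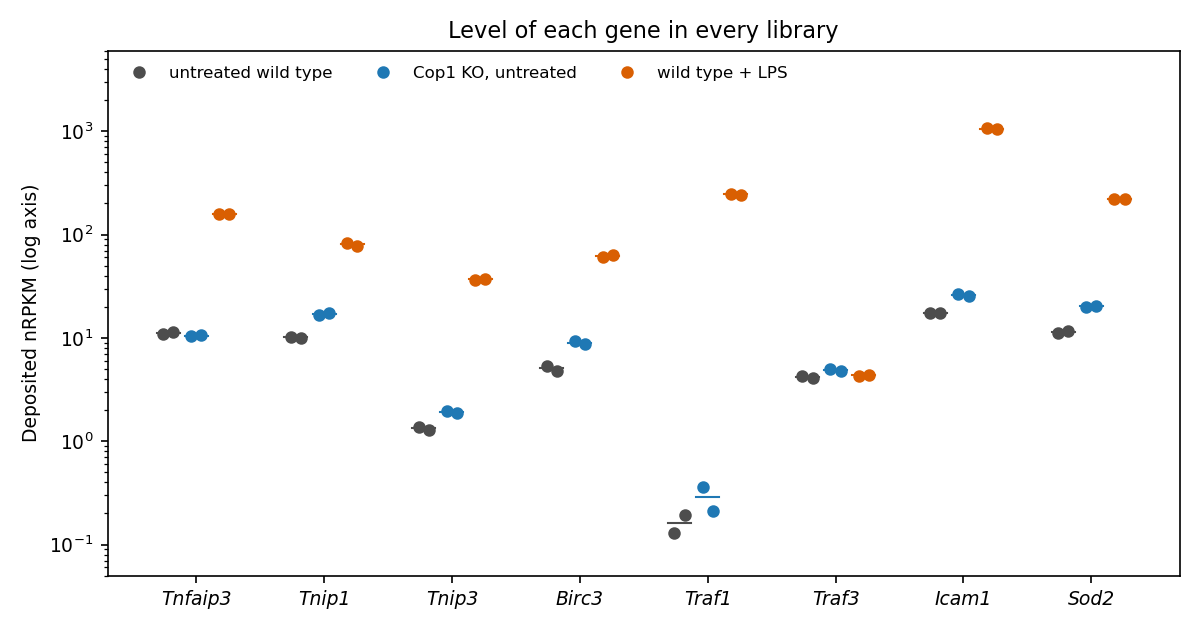
Deposited nRPKM (log axis) of the 8 genes in each of the 6 libraries; each point is a library and each short line the mean of 2. In 7 genes the LPS libraries stand far above the others, Traf1 moving from 0.161 to 245, while Traf3 stays between 4.09 and 4.94 in all 6.

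On the per-length scale of the deposited nRPKM (reads per kilobase scaled to depth with a size factor per library), the genes could be ordered by level within each group. Untreated wild type ran Icam1 (17.4), Sod2 (11.3), Tnfaip3 (11.1), Tnip1 (10.1), Birc3 (5.07), Traf3 (4.18), Tnip3 (1.34) and Traf1 (0.161), as means of 2 libraries. Sod2 and Tnfaip3 overlapped there, and the other neighbours did not. With LPS the order was Icam1 (1059), Traf1 (245), Sod2 (222), Tnfaip3 (158), Tnip1 (80.3), Birc3 (62.4), Tnip3 (36.9) and Traf3 (4.34), with no overlap between neighbours. Traf1 therefore stood last without LPS and second with it, and Traf3 went to the last place with a nearly constant level. In Cop1 KO the order was that of untreated wild type except that Tnip1 (16.9) stood above Tnfaip3 (10.5), with no overlap between neighbours.

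Ratios within a library do not depend on the scaling between libraries. The ratio of Traf1 to Traf2, both TRAF adaptors of the TNF receptor family, was 0.0516 and 0.0785 in untreated wild type, 0.101 and 0.0592 in Cop1 KO and 14.8 and 15.5 with LPS, on the nRPKM scale. The 2 untreated groups overlapped in it. Birc3 over its relative Birc2, the gene of cIAP1, was 1.98 and 1.71 in untreated wild type, 2.51 and 2.20 in Cop1 KO and 7.29 and 7.40 with LPS. So the cIAP2 transcript was above the cIAP1 transcript in every library, and most so with LPS. Sod2 over Sod1, the cytosolic superoxide dismutase gene, was 0.151 and 0.152 in untreated wild type, 0.230 and 0.249 in Cop1 KO and 3.24 and 3.60 with LPS. With LPS the mitochondrial enzyme's transcript stood above the cytosolic one, which it did not do in the other 4 libraries. Tnfaip3 over Tnip1 was 1.08 and 1.12 in untreated wild type, 0.630 and 0.612 in Cop1 KO and 1.87 and 2.07 with LPS. The A20 transcript was therefore lower relative to its partner in the knockout and higher with LPS, without overlap between the 3 groups.

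The knockout comparison set the same genes in Cop1 KO against untreated wild type, both without a stimulus. The 2 groups also differed in the marker sums of other cell types given above, and the part of cell make-up was not tested. Of the 8, 5 rose, 1 fell and 2 did not pass, and none of the called changes of the 8 reached 2-fold. With libraries scaled to the summed microglia markers, an alternative chosen after the data were seen and described below, the count turned to 2 higher (Birc3 and Sod2), 3 lower (Tnfaip3, Traf3 and Icam1) and 3 not passed. Under that scaling 683 of the 15585 genes tested were called higher and 12055 lower, with a median log2 fold change of −0.57. With TMM scaling, for comparison, 28.1% of all genes tested were called higher and 30.3% lower (3.3% and 14.5% by at least 2-fold), and the median of the 8 was 0.52 against −0.01 for all genes. Birc3, Sod2 and Tnip1 rose most among the called genes, by 1.63-, 1.62- and 1.53-fold, and Tnfaip3 was the one that fell.

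Birc3 was at 38.1 and 36.1 CPM in Cop1 KO, above the 24.2 and 21.5 CPM of wild type (log2 0.70, SE 0.06, edgeR adjusted p = 3.5e-14, n = 2 libraries per group). Sod2 was at 102 and 105 CPM, above 62.9 and 65.1 (0.70, SE 0.04, adjusted p = 1.1e-21). Tnip1 was at 71.7 and 74.7 CPM, above 48.1 and 47.7 (0.61, SE 0.05, adjusted p = 5.7e-16). In these 3 genes both knockout libraries lay above both wild-type libraries, as in 37.9% of all genes tested (both below in 39.5%).

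Icam1 rose to 90.3 and 86.6 CPM (0.43, SE 0.04, adjusted p = 1.2e-14), and Tnip3 to 10.5 and 10.1 CPM (0.38, SE 0.10, adjusted p = 0.0010). The Tnip3 call was lost with library size only (0.19, adjusted p = 0.11; 7.6e-05 to 0.11 over all alternatives). Tnfaip3 went the other way, to 67.6 and 68.5 CPM from 77.8 and 80.2. It was 13.9% lower (−0.22, SE 0.04, adjusted p = 1.2e-05) and kept its sign under every alternative run. On the authors' normalised scale the Tnfaip3 change did not pass (−0.08, SE 0.03, limma adjusted p = 0.081; 5.8e-20 to 0.081 over all alternatives). With TMM scaling, then, the A20 gene fell where the genes of both its partners rose.

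Traf1 and Traf3 did not pass in the knockout. Traf1 had 27 and 16 counts in Cop1 KO against 12 and 19 in wild type, so that 1.22 and 0.706 CPM overlapped 0.476 and 0.708 (log2 0.68, SE 0.32, adjusted p = 0.07). The value rests on single libraries: it was 0.43 without untreated replicate 1 (edgeR adjusted p = 0.37) and 0.25 without Cop1 KO replicate 1 (0.68). Traf1 passed when untreated replicate 2 was left out (1.0, edgeR adjusted p = 0.047), when Cop1 KO replicate 2 was left out (1.03, 0.017) and under median-of-ratios factors (0.77, 0.038). Its adjusted p ran from 0.017 to 0.75 over all alternatives. Traf3 was at 50.4 and 48.6 CPM, just above wild type at 47.5 and 45.5 (0.09, SE 0.06, adjusted p = 0.19). With median-of-ratios factors Traf3 passed as higher (0.18, edgeR adjusted p = 0.0084), as it did on the authors' scale (0.18, limma adjusted p = 0.03), and with library size only it was −0.10 (0.12).

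**Figure D3:**
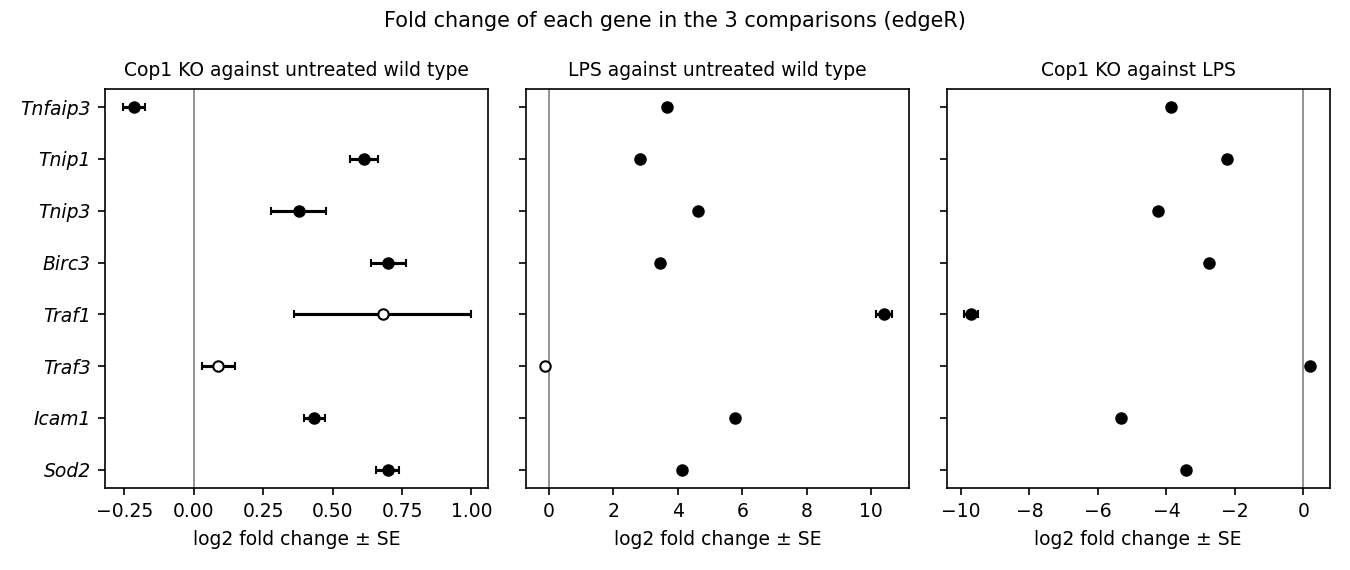
Log2 fold change ± SE of the 8 genes from the edgeR fit in the 3 comparisons, each panel with its own x axis; filled points passed at adjusted p below 0.05. In the knockout panel the values lie between −0.22 and 0.70, and in the LPS panel between −0.11 and 10.39.

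The 5 genes that rose in the knockout had log2 values of 0.38 to 0.70, within the range of the microglia markers in the same libraries, while Tnfaip3 (−0.22) and Traf3 (0.09) lay below that range. Of the 12 markers, 10 rose and 0 fell, with a median log2 fold change of 0.45 and a range of 0.14 to 0.89, while the astrocyte markers had a median of −3.61. Counted per 1000 microglia marker counts, Icam1 was at 8.20 and 8.13 in wild type and 7.60 and 7.28 in Cop1 KO. Tnip1 was at 6.01 and 5.93 in wild type and 6.04 and 6.28 in the knockout, and Sod2 at 7.86 and 8.11 against 8.63 and 8.85. Tnfaip3 was at 9.72 and 9.99 against 5.69 and 5.76. On this scale Sod2 was slightly higher, Tnip1 close to wild type, Icam1 slightly lower and A20 clearly lower. The scale itself shifts most genes down: over all genes tested, its fit, described next, had a median log2 fold change of −0.57.

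A fit with libraries scaled to the same marker sum, chosen after those sums were seen, gave log2 fold changes of 0.13 for Birc3 (SE 0.06, edgeR adjusted p = 0.049) and 0.13 for Sod2 (SE 0.04, adjusted p = 0.0034). Tnip1 was at 0.05 (SE 0.05, edgeR adjusted p = 0.41), so its call was lost. Icam1 turned to −0.13 (SE 0.04, edgeR adjusted p = 0.0023), Tnip3 to −0.19 (SE 0.10, 0.07) and Traf3 to −0.48 (SE 0.06, 1.1e-09). Tnfaip3 fell by 0.78 on the log2 scale (SE 0.04, edgeR adjusted p = 5.8e-20), beside a median of −0.57 over all genes tested. The markers themselves differed in their change, so this scale has no firmer zero point than the others, and the part of cell make-up in the knockout values was not tested. With LPS the same scaling gave log2 fold changes of 3.39 to 10.95 for the 7 genes that rose, larger than with TMM, and 0.45 for Traf3. The median over all genes tested was then 0.38.

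**Figure D4:**
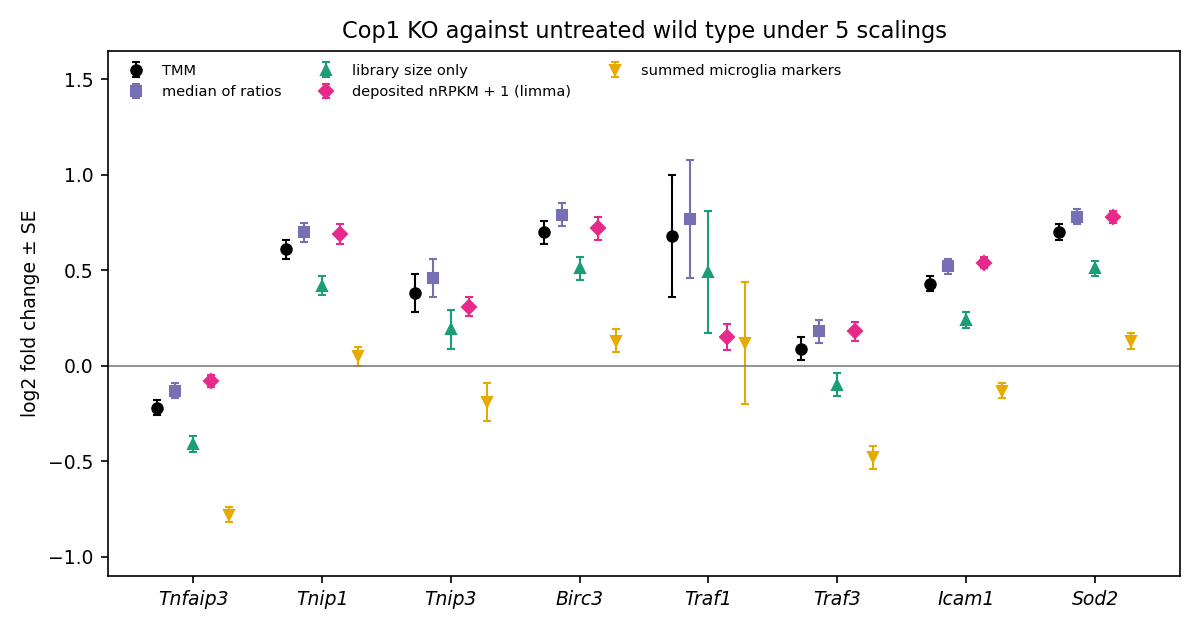
Log2 fold change ± SE of the 8 genes between Cop1 KO and untreated wild type under 5 scalings. Tnfaip3 is below 0 in all 5 (−0.78 to −0.08), Birc3 and Sod2 above 0 in all 5, and Icam1, Tnip3 and Traf3 on both sides of 0.

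Set directly against wild type with LPS, Cop1 KO without LPS differed in all 8 genes with TMM scaling. It was lower in 7, each by more than 2-fold, and higher in 1, Traf3. Of all genes tested, 39.6% were called lower (24.2% by at least 2-fold) and 39.9% higher, and the median was −3.65 against 0.03 for all genes. Traf1 was 835-fold lower in the knockout than with LPS (log2 −9.71, SE 0.21), Icam1 40.1-fold lower (−5.33, SE 0.03) and Tnip3 18.9-fold lower (−4.24, SE 0.08). Tnfaip3 was 14.7-fold, Sod2 10.8-fold, Birc3 6.76-fold and Tnip1 4.64-fold lower. Since both other comparisons share the untreated libraries, this contrast is also the test of the difference between the knockout and LPS responses. Traf3 was 1.15-fold higher in the knockout (0.20, SE 0.06, edgeR adjusted p = 0.0033). The Traf3 call was lost with DESeq2 (0.14, adjusted p = 0.11) and on the authors' scale (0.14, limma adjusted p = 0.057). Its value turned to −0.93 with the microglia marker scaling (edgeR adjusted p = 3.5e-17), under which the median over all genes was −1.1.

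The 7 lists of pathway genes, 83 genes in all with 82 tested, were set beside the 8 genes. Of the 82, 44 rose and 11 fell in the knockout (median 0.24), and 60 rose and 16 fell with LPS (median 1.17). With the same TMM scaling, 28.1% of all genes tested were called higher and 30.3% lower in the knockout. The shares with LPS were 30.2% and 43.4%. These shares also stand beside the count of each list below. In the knockout 34 of the 82 list genes rose and 30 fell with library size only, and with LPS 47 rose and 31 fell. Of all 15585 genes tested, that setting called 2321 higher and 7195 lower in the knockout, and 2679 higher and 10766 lower with LPS. The microglia marker scaling was not applied to the lists. Under it the median log2 fold change over all genes tested was −0.57 in the knockout, so the list counts in the knockout hold for the scalings named here only.

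Of the NF-kB subunit and IkB genes, all 10 rose with LPS (median 3.55) and 9 of 10 rose in the knockout (median 0.76, beside 0.45 for the microglia markers). Rel, picked out after its value was seen, was the one that did not pass there (0.11, SE 0.10, adjusted p = 0.39). Nfkbia, the gene of IkB alpha, rose by 4.42 (SE 0.04) with LPS and by 0.89 (SE 0.04) in the knockout. Nfkb2, which encodes p100, rose by 4.68 and 0.77, and Nfkbiz, a nuclear IkB gene, by 5.28 and 1.22. In the knockout libraries, then, the IkB alpha gene rose while the A20 gene fell. Of 16 other NF-kB target genes all rose with LPS (median 3.70), and 8 rose and 2 fell in the knockout (median 0.28). Cd40, a costimulatory receptor gene, went from 2.19 to 2660 CPM with LPS (10.24, SE 0.12) and to 4.10 CPM in the knockout (0.90, SE 0.15). Slc2a6, a sugar transporter family gene, rose by 5.82 and 0.94. Ehd1, an endocytic recycling gene, rose by 4.69 with LPS and stood at −0.01 in the knockout (SE 0.04, edgeR adjusted p = 0.94), or 0.12 on the authors' scale (limma adjusted p = 0.044) and −0.20 with library size only (edgeR adjusted p = 0.00017). Tnfrsf1b, the gene of TNF receptor 2, rose by 2.34 and 0.74, and Zc3h12a, which encodes the RNase regnase-1, by 3.76 and 0.79.

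The machinery around A20 and the TRAFs was more mixed. Of 13 A20 partners and other ubiquitin-editing genes, 9 rose and 3 fell with LPS (median 0.33), and 6 rose and 1 fell in the knockout (median 0.11). Rnf31, which encodes the catalytic HOIP subunit of the linear ubiquitin ligase, rose by 2.80 (SE 0.05) and 0.79 (SE 0.05). N4bp1 rose by 2.81 and 0.68, while Tnfaip8l2 fell by 1.49 with LPS and rose by 0.73 in the knockout. Of 12 TRAF and cIAP signalling genes, 8 rose and 2 fell with LPS (median 0.94), and 7 rose and 1 fell in the knockout (median 0.25). Cflar, the gene of the caspase 8 inhibitor c-FLIP, rose from 81.3 to 1347 CPM with LPS (4.05, SE 0.04) and by 0.43 in the knockout. Tank and Traf2 rose by 2.46 and 2.54 with LPS. Map3k14, the gene of the kinase NIK that TRAF3 restrains, fell by 0.81 with LPS and rose by 0.50 in the knockout. Of 9 IKK and TAK1 kinase genes, 6 rose and 2 fell with LPS (median 0.30), and 5 rose and 0 fell in the knockout (median 0.12). Ikbke led them at 3.71 (SE 0.04) and 0.76 (SE 0.04), with Ikbkb at 0.98 and 0.44.

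Genes tied to ICAM-1 and to SOD2 by function had no common direction. Of 9 ICAM-1 ligand and adhesion genes tested, 5 rose and 3 fell with LPS, and 4 rose and 3 fell in the knockout. Itgal, the LFA-1 alpha chain gene, rose by 2.85 (SE 0.03) and 0.79 (SE 0.03), while Itgb2, the shared beta chain gene, fell by 0.13 with LPS (a call whose sign turned to 0.01 with median-of-ratios factors) and rose by 0.35 in the knockout. Vcam1, another adhesion molecule gene, went from 3.77 and 4.77 CPM to 522 and 532 CPM with LPS (6.94, SE 0.10) and to 0.630 and 0.838 CPM in Cop1 KO (−2.53, SE 0.25). Vcam1 thus fell in the same libraries in which Icam1 rose and the astrocyte marker sum was at 79.5 and 77.6 CPM. The part of other cell types in the Vcam1 value was not tested. Of 13 superoxide and peroxide removal genes, 6 rose and 6 fell with LPS, and 5 rose and 4 fell in the knockout. Prdx5, a peroxiredoxin gene, rose in both (2.97, SE 0.03, and 1.22, SE 0.03).

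**Figure D5:**
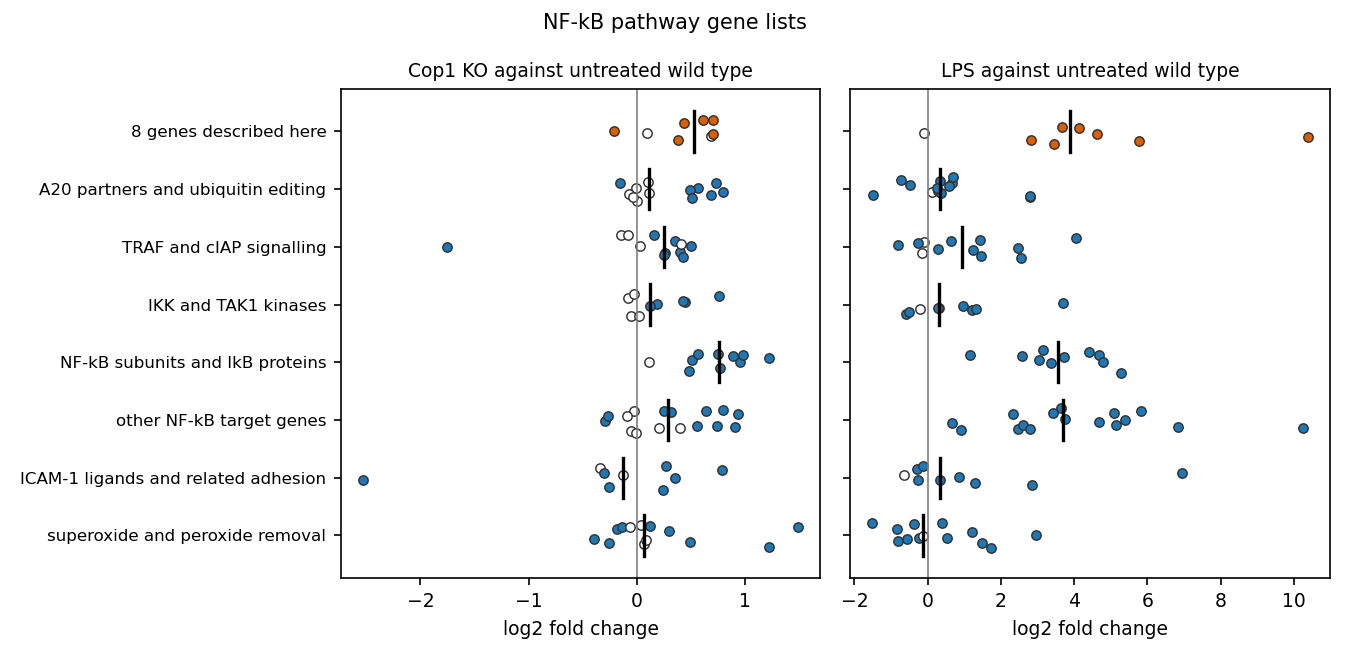
Log2 fold change of each gene in the 8-gene set (orange) and in 7 pathway lists (blue) for the knockout (left) and LPS (right) comparisons; open points did not pass, and black bars are list medians. The bars of the NF-kB subunit list stand at 0.76 and 3.55, and those of the 8 genes at 0.52 and 3.89.

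Likeness of pattern was measured as the root mean square difference in log2 CPM, each gene centred on its own mean over the 6 libraries, against 10076 named genes with at least 5 CPM. Nearest to Tnfaip3 were Cd83 (0.062), Il4i1 (0.114) and Hap1 (0.118). Nearest to Icam1 were Cd274 (0.072), Bambi-ps1 (0.123) and Gypc (0.138), and nearest to Tnip3 were Xkr8 (0.076), Cdc42ep2 (0.111) and Sdc4 (0.120). Birc3 was closest to Zup1 (0.054), Themis2 (0.073) and Mybpc3 (0.083), Sod2 to Psd (0.037), Enpp4 (0.045) and Tmem171 (0.072), and Tnip1 to Pttg1 (0.052), Tmem243 (0.052) and Ogfr (0.058). Traf1 had no close neighbour: Cd40 (0.289), Hdc (0.362) and Tnfsf4 (0.422) came nearest, and 0 genes lay within 0.2. Its counts were low without LPS, at 12 and 19 in untreated wild type and 27 and 16 in Cop1 KO. Its distance to any gene therefore includes the counting noise of these libraries. Traf3, in contrast, had 2722 genes within 0.2, led by Dido1 (0.018), Dap3 (0.020) and Dgcr2 (0.022), the pattern of a gene with little change. Among the 8 genes themselves the closest pair was Tnip1 with Birc3 (0.289) and the farthest Traf1 with Traf3 (4.76).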

How the data were processed

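Each library came with 2 measures from the authors, described per the file headers: a read count per Entrez gene model from unique alignments, and an RPKM (nRPKM) that carries a size factor for the library. GSNAP and GRCm38 are named in the submitters' processing notes; no version or annotation release is named there. RefSeq named 31049 of 36528 identifiers, and those without a name held 1.075% to 1.307% of counts. Counts were fitted in R 4.3.3 with edgeR 4.0.16 (filterByExpr by group, TMM factors, quasi-likelihood test, group means over all 6 libraries, 3 residual degrees of freedom), with Benjamini-Hochberg adjustment over 15585 genes. Replicates differed by more than counting noise (chi-square per degree of freedom 1.579 to 2.472). Alternatives were DESeq2 1.42.0, limma 3.58.1 on log2(nRPKM + 1), other scalings, no filter, 2 groups only and leaving out each library; tables were joined with Python 3.11.15. Pathway genes named are the 3 with the smallest p per list in each comparison with untreated wild type at a mean of at least 5 CPM, and the 3 nearest patterns per gene leave out unnamed models and predicted genes; not every named gene is printed. Members and lists were chosen with earlier results of these data known.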

Additional observations from a re-analysis of the deposited data

How the results depend on the processing

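The direction and call of the 7 genes that rose with LPS held under all 13 alternatives. Without the marker scaling, over 12 alternatives, 313 of 324 recomputed fold changes of the 8 genes and Cop1 kept their call, 5 lost and 6 gained one, and 0 called values changed sign; Cop1 lost its knockout call on the authors' scale (−0.21, limma adjusted p = 0.075). Of 1044 recomputed values of 29 pathway genes, 1024 kept theirs. The knockout values of Tank and Tab2 turned to −0.03 and −0.07 with library size only, and Ehd1 to 0.12 on the authors' scale. Itgb2 with LPS turned to 0.01 (median-of-ratios factors and DESeq2), 0.03 (authors' scale) and 0.02 (only the 2 groups compared), and Txnrd1 to −0.17 with library size only. Scaled to microglia markers, Traf3 turned to −0.48 (knockout), 0.45 (LPS) and −0.93 (Cop1 KO against LPS). In the knockout, Icam1 then turned to −0.13 and Tnip3 to −0.19. The medians over all genes tested under this scaling were −0.57 (knockout), 0.38 (LPS) and −1.1 (Cop1 KO against LPS). The number of the 8 genes called in the knockout was 5 to 8 over these 12, and 6 or 7 when leaving out 1 library. With 2 libraries a group, a lone library was assumed to vary like the others. The fewest reads stood behind Traf1 without LPS, whose knockout value these counts leave imprecise. No paired analysis was possible because the labels carry no replicate numbers.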
